A study of Rattus norvegicus with 26 samples.

Results

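The motile cilia genes of the rat spinal cord were followed through a compression injury and the transplantation of human umbilical cord mesenchymal stem cells (hUC-MSC). Genes were taken by symbol (Dnah, Dnai, Dnali, Cfap, Rsph, Tekt or Drc followed by a number, and Foxj1), and a gene was kept when at least 10 reads were counted in at least 3 libraries. Of 32883 genes in the count table, 56 carried such a symbol and 52 were kept, made up of 25 Cfap, 10 Dnah, 6 Rsph, 5 Tekt, 3 Dnai or Dnali and 3 Drc genes. All 52 were among the 17990 genes that entered the tests. Cfap97d1, Rsph4a, Cfap58 and Cfap58l1 had totals of 54, 17, 3 and 0 counts over all libraries and were not kept. Foxj1 was not analysed here.

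All animals were wild-type adult female Sprague-Dawley rats of about 250 g, and the labels give postnatal day 70. The Intact group (n = 4) is labelled untreated. The study describes these rats both as intact/sham and as normal, so whether they had a sham operation is not clear. In all other groups the cord was exposed by laminectomy, and a 60 g aneurysm clip compressed it at T10 for 1 min. Rats of the sub-SCI group (n = 3) stood for the subacute stage, at day 7 after injury. Others received an intrathecal injection of hUC-MSC or of the PBS vehicle at day 7 and were followed for 1, 2 or 4 weeks. These groups are +PBS-1w (n = 3), +PBS-2w (n = 2), +PBS-4w (n = 4), +MSC-1w (n = 3), +MSC-2w (n = 3) and +MSC-4w (n = 4). The study's methods describe a daily subcutaneous dose of the immunosuppressant cyclosporin A without excepting a group, and they call the libraries biological replicates without saying how many rats each holds. RNA came from the 5 mm of cord around the lesion, so each library is a mixture of all cell types there. Fewer ependymal cells, less ciliary RNA per ependymal cell and a larger share of RNA from other cells cannot be told apart in such libraries.

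Motile cilia beat because dynein arms on their outer doublet microtubules pull neighbouring doublets past each other, while radial spokes, the central pair and nexin links set the rhythm. In the cord, cilia of this kind line the central canal on ependymal cells, where they move cerebrospinal fluid. Cells with many motile cilia build them from a shared set of genes that the factors FOXJ1 and RFX are known to switch on. Some genes with the Cfap symbol are also used in primary cilia and in cells without motile cilia, among them Cfap20, Cfap36, Cfap97, Cfap298 and Cfap410.

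The stretch before the start of transcription is printed for 4 members, because Tekt2, Drc1 and Dnali1 rose together from sub-SCI to +PBS-4w and Dnai2 did not. RefSeq promoters on the rat build GRCr8 were matched for 45 of the 52 genes, with 70 promoters in all. Each sequence below is the 250 bases upstream of the start, read 5′ to 3′ on the strand of the gene. In Tekt2 (chr5:143907725-143907974, minus strand), Drc1 (chr6:31779257-31779506, minus strand) and Dnai2 (chr10:100258772-100259021, plus strand) capitals mark the RFX half-site GTTGCC or its reverse complement GGCAAC, and in Dnali1 (chr5:142611971-142612220, minus strand) they mark the forkhead cores TGTTTAC and TGTTTGC or their reverse complements.
Tekt2: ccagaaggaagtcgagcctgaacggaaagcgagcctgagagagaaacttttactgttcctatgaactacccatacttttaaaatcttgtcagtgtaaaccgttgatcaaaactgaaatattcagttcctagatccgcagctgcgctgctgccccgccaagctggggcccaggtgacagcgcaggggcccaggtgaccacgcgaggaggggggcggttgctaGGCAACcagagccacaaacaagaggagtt
Drc1: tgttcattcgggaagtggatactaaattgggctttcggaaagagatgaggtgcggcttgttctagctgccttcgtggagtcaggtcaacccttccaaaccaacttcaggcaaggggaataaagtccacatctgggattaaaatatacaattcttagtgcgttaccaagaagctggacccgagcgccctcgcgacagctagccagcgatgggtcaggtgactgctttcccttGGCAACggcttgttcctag
Dnali1: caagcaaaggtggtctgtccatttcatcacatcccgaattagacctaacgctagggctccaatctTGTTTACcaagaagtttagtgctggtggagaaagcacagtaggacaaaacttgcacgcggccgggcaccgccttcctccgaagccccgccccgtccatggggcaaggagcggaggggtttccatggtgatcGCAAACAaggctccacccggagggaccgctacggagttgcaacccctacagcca
Dnai2: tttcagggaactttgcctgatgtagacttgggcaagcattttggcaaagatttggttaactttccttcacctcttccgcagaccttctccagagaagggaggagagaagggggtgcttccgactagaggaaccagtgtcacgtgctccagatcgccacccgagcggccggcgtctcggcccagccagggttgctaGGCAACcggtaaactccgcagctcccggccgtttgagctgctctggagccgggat
In this window the RFX half-site was found in 15 of the 70 promoters (21.4%), belonging to 13 genes, and in 9.89% of all 33469 promoters in the RefSeq table. TGTTTAC was found in 5 of 70 (7.14%) against 3.21% of all, and TGTTTGC in 3 of 70 (4.29%) against 4.16% of all. A pair of half-sites (GTTNCC, 0 to 3 bases, then GGNAAC) was found only at Cfap298, 1 of 70 (1.43%), against 0.729% of all. Both strands were searched, and a single half-site can be part of such a pair. Only exact matches were counted, so pairs that differ from the pattern in 1 base are left out. Tekt2 and Dnai2 are examples, with gttgcta directly before the marked half-site. A match in these letters is a description of the sequence and was not tested as a binding site.

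The libraries held 19496602 to 43468509 counted reads, with a median of 26158978.5. For 7 of the 52 genes, at least 1 library had under 10 counts, so their single values rest on few reads. Outside the 52 genes, 18 ependymal markers were tested. Of these, the defining markers Ccdc153 and Tmem212 were detected at means of 3.81 ± 1.68 and 2.33 ± 0.132 CPM (SD, n = 4) in Intact cord. Their detection does not show which cells the reads of the 52 genes came from. Markers of choroid plexus epithelium, another ciliated tissue bathed in cerebrospinal fluid, summed to 12.3 to 44.4 CPM in Intact cord. The ependymal markers summed to 373 to 434 CPM. Whether choroid plexus cells were in the segment was not tested. The ependymal sum was carried by Tppp3, Cd24 and Prom1, with means of 230, 76.3 and 38.5 CPM, which other cells of the cord also express. Libraries numbered replicate 1 stood apart in the long dynein heavy chain genes, as set out near the end, and main counts are given with and without them.

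Expression is given as CPM, the reads of a gene scaled to a common library size, and differences are given as log2 fold changes from a single edgeR quasi-likelihood model over all 8 groups. Following the thresholds of the study, a gene was called a differentially expressed gene (DEG) when its log2 fold change exceeded 1 in size and its Benjamini-Hochberg adjusted p over all genes was under 0.01. To follow the 52 genes together, a cilia level was computed for each library, defined as the median over the 52 genes of log2 CPM minus the Intact mean.

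In Intact cord the genes differed widely in level per transcript length. Cfap36, a protein also found outside motile cilia, was highest at 107 CPM per kb, followed by Cfap410 (39.2), Cfap298 (36.2) and Cfap20 (24.8). The next gene was Cfap126, a protein of the inside of the doublet microtubule, at 9.74 ± 1.84 CPM per kb (SD, n = 4), and the inner arm heavy chain Dnah12 stood at 8.17 ± 0.569 CPM per kb. The spreads of these last genes overlap, so their order is not resolved. At the other end were Dnah17 (0.145 CPM per kb) and Dnah8 (0.104 CPM per kb), heavy chains best known from sperm tails. Of the 4 genes at the top, all belong to the 5 members known from cells without motile cilia.

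The first question was how these genes stood at the subacute stage after injury. The cilia level was −0.86 ± 0.25 in sub-SCI (SD, n = 3) and 0.02 ± 0.09 in Intact (n = 4). The 3 sub-SCI libraries stood at −0.71, −0.71 and −1.15 and the 4 Intact libraries at −0.01, 0.16, 0.01 and −0.06, without overlap. Summed over the 52 genes, 340 to 448 CPM were measured in sub-SCI and 675 to 712 CPM in Intact. Of the 52 genes, 20 were lower DEGs and 2 were higher DEGs, while 17.5% of all genes tested were lower and 16.6% higher DEGs. The median log2 fold change was −0.84 for the 52 genes and −0.02 for all genes, and the fold change lay below 0 for 44 of the 52. In 32 genes every sub-SCI library lay below every Intact library, and in 3 genes above, against 34% and 32.9% of all genes. Without all replicate 1 libraries, 18 of the 52 remained as a count, 16 lower and 2 higher. The count fell to 13 without sub-SCI replicate 3, the library with the lowest cilia level.

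**Figure D1:**
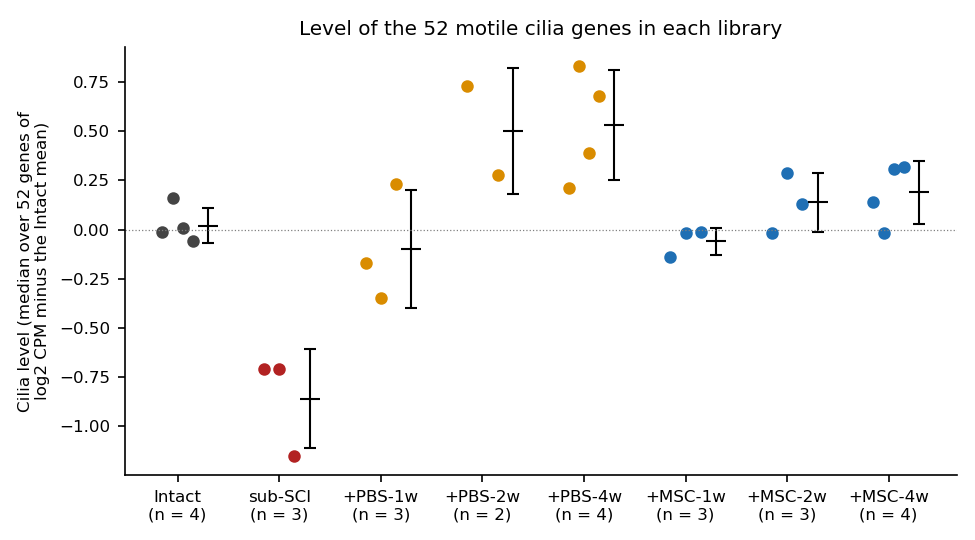
Cilia level of each library (points, vertical axis in log2 units), by group on the horizontal axis, with the group mean and SD as a bar beside the points. The 3 sub-SCI libraries lie at −0.71 to −1.15, below every other library, and the 4 +PBS-4w libraries at 0.21 to 0.83, above the 4 Intact libraries.

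Among the dynein heavy chains, the motors of the arms, 5 of 10 were lower DEGs and 1 was higher in sub-SCI, with a family median of −1.08. Dnah12, an inner arm heavy chain, measured 90.4, 107, 103 and 101 CPM in Intact, and 42.1, 29.3 and 24.1 CPM in sub-SCI. Every sub-SCI library was lower than every Intact one, and Dnah12 differed by −1.65 ± 0.326 on the log2 scale (SE, adjusted p = 0.000154). Dnah9, an outer arm heavy chain, measured 31.1, 26.2, 32.4 and 29.5 CPM in Intact and 7.21, 9.9 and 4.75 CPM in sub-SCI. The groups again did not overlap, and Dnah9 fell by 2.03 on the log2 scale (SE 0.223, adjusted p = 1.05e-07). Dnah5, the partner of Dnah9 and Dnah11 in the outer arm, went from 11.7 to 17.4 CPM in Intact down to 2.58 to 4.68 CPM (log2 fold change −1.86, adjusted p = 0.00342). The inner arm genes Dnah6 (−2.03) and Dnah2 (−1.1) were DEGs as well. Dnah1, also of the inner arms, had a log2 fold change of −0.32 (adjusted p = 0.428), and Dnah11, of the outer arm, one of 0 (adjusted p = 0.996).

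The intermediate chains hold the heavy chains together at the base of the outer arm, and the pair behaved in opposite ways. Dnai1 measured 5.46, 5.36, 3.84 and 4.22 CPM in Intact and 1.95, 1.59 and 0.949 CPM in sub-SCI. It was lower in every sub-SCI library, and the difference was −1.65 ± 0.224 on the log2 scale (SE, adjusted p = 1.86e-06). Dnai2 measured 0.709, 1.33, 0.925 and 0.684 CPM in Intact and 3.72, 2.25 and 1.76 CPM in sub-SCI. All sub-SCI libraries were higher, and the log2 fold change was 1.5 ± 0.278 (SE, adjusted p = 8.31e-05). Dnali1, a light intermediate chain of inner arms, had a log2 fold change of −0.76 (adjusted p = 0.0157) and was no DEG.

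The 3 genes with a Drc symbol, which belong to the nexin-dynein regulatory complex that links neighbouring doublets, were lower DEGs. Other genes of this complex do not carry the symbol, and of these Ccdc65 was a lower DEG (−1.43, adjusted p = 8.73e-07), while Gas8 (−0.73, adjusted p = 0.00127) and Iqcd (−0.32, adjusted p = 0.151) were not. Drc1 measured 16.6, 15.9, 12.6 and 15.5 CPM in Intact and 9.18, 8.16 and 3.12 CPM in sub-SCI, all of them lower (log2 fold change −1.15 ± 0.249, SE, adjusted p = 0.00042). Without sub-SCI replicate 3, the lowest of these libraries, the log2 fold change of Drc1 was −0.8 and it was no DEG. Drc3 fell from 7.96 to 11.3 CPM to 3.42 to 5.41 CPM (−1.16, adjusted p = 9.7e-05). Drc7 stood near the thresholds (−1.05, adjusted p = 0.00873) and lost its call in 21 of the alternative fits, with median-of-ratios scaling (−1.02) among them.

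Radial spoke genes code for the T-shaped complexes that reach from the doublets toward the central pair. Rsph6a measured 3.11, 3.07, 3.7 and 3.95 CPM in Intact and 0.174, 0.29 and 0.271 CPM in sub-SCI, where these values rest on 6, 8 and 8 counts. The groups were far apart, and −3.81 ± 0.413 was the largest log2 fold change of the 52 genes (SE, adjusted p = 8.91e-08). Rsph14, at 0.266 to 1.15 CPM in Intact and 2, 6 and 3 counts in sub-SCI, was also a lower DEG (−2.4, adjusted p = 0.00102). Rsph9, a spoke head gene, fell by less than the DEG threshold (−0.83 ± 0.183, SE, adjusted p = 0.000472), and Rsph10b (−0.92, adjusted p = 0.00635) and Rsph3 (−0.65, adjusted p = 0.00395) did so too. Rsph1, another spoke head gene, measured 1.15 to 2.01 CPM in sub-SCI and 1.44 to 3.11 CPM in Intact, overlapping ranges (−0.28, adjusted p = 0.496).

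Tektins are filament proteins inside the doublet microtubules. Tekt5 measured 1.69, 1.79, 1.99 and 1.37 CPM in Intact and 0.465, 0.29 and 0.271 CPM in sub-SCI, lower in each library (−2.29 ± 0.472, SE, adjusted p = 0.000243). The other 4 tektins were no DEGs at this stage, with log2 fold changes of −0.9 for Tekt4 (adjusted p = 0.0195), −0.52 for Tekt3, −0.32 for Tekt2 and −0.24 for Tekt1.

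Of the 25 Cfap genes, 8 were lower DEGs, with a median of −0.78. Cfap126 measured 12.5, 11.6, 7.91 and 10.3 CPM in Intact and 2.82, 3.12 and 1.46 CPM in sub-SCI. It was lower in each library, with a difference of −2.1 ± 0.273 on the log2 scale (SE, adjusted p = 1.02e-06). Cfap57, which helps to place inner arms, measured 2.56, 2.7, 2.87 and 2.09 CPM in Intact and 1.05, 0.58 and 0.339 CPM in sub-SCI (−1.94 ± 0.3, SE, adjusted p = 9.18e-06). The central pair genes Cfap221 (−1.73), Cfap74 (−1.53), Cfap65 (−1.5) and Cfap69 (−1.23) were DEGs, as were Cfap206 of the spokes (−1.52) and Cfap43 of the tether that holds an inner arm (−1.35). The 5 genes known outside motile cilia had a median of −0.43. Cfap410 (−0.8, adjusted p = 0.000189) and Cfap36 (−0.94, adjusted p = 0.000745) moved by less than the fold threshold, and Cfap20 had a log2 fold change of 0.13 (adjusted p = 0.361).

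**Figure D2:**
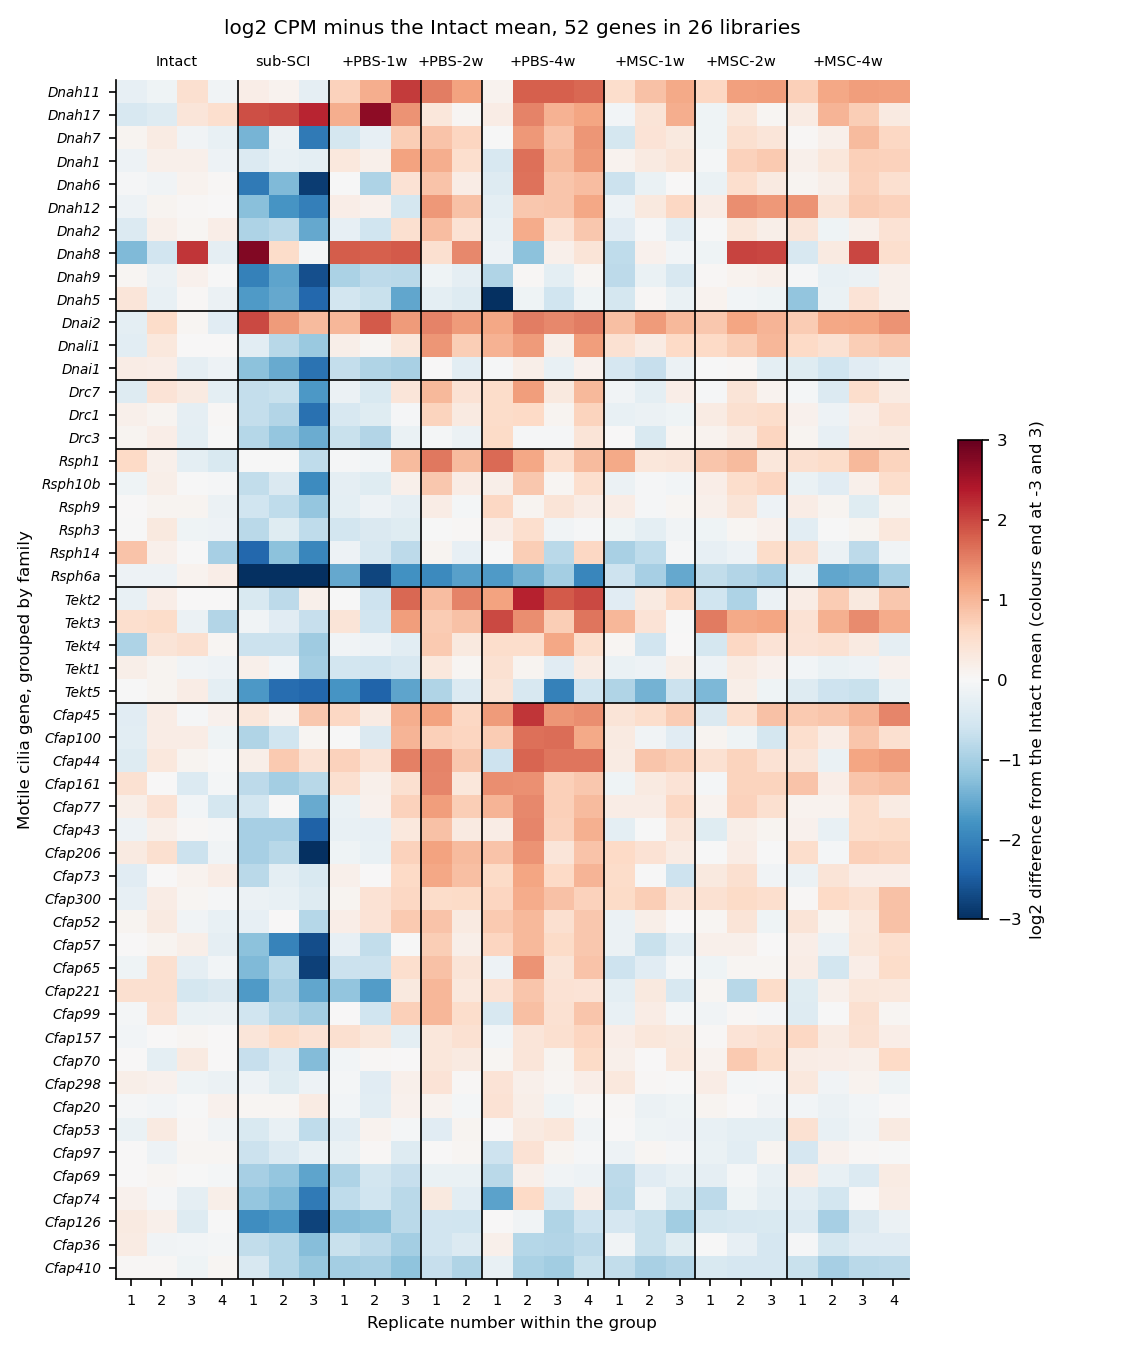
log2 CPM minus the Intact mean (colour, blue lower and red higher, ending at −3 and 3) of the 52 genes in rows and the 26 libraries in columns, numbered by replicate within their group. Blue prevails in the 3 sub-SCI columns, where 44 of 52 fold changes lie below 0, while Dnah17 and Dnai2 are red there.

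The second question was the course after the PBS injection. Groups injected with PBS or hUC-MSC differ from sub-SCI in both the injection and the time after injury, which cannot be told apart. The cilia level, set against Intact as before, was −0.1 ± 0.3 (mean ± SD, n = 3) for +PBS-1w, 0.5 ± 0.32 (n = 2) for +PBS-2w and 0.53 ± 0.28 (n = 4) for +PBS-4w. The single libraries were at −0.17, −0.35 and 0.23, then at 0.73 and 0.28, then at 0.21, 0.83, 0.39 and 0.68. Each of these 9 libraries lay above every sub-SCI library. The comparisons with sub-SCI share its 3 libraries and are not independent of one another, and all but that of +PBS-4w were added after the data had been seen. In +PBS-4w, 38 of 52 genes were higher than in sub-SCI and 0 lower as DEGs, against 4.28% and 3.09% of all genes, and the median was 1.45 for the 52 genes and 0.06 for all genes. In +PBS-2w, 24 were higher and 1 lower (3.34% and 2.1% of all genes). In +PBS-1w none was a DEG by edgeR (0.05% of all genes were higher), and the smallest adjusted p was 0.0105. At an unadjusted p under 0.05, 32 were higher and 0 lower, and DESeq2 on all libraries called 9. The share of all genes is given here for neither of these, so these counts cannot be read as an excess. At +PBS-1w the count was 5 without +PBS-4w replicate 1, and 1 without sub-SCI replicate 1, sub-SCI replicate 2, +PBS-1w replicate 3 or +MSC-4w replicate 1.

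The count at +PBS-4w against sub-SCI was 31 without all replicate 1 libraries and 22 without sub-SCI replicate 3. In an edgeR fit on these groups alone none passed, with a smallest adjusted p of 0.0107, while 30 genes had an adjusted p under 0.05 and a log2 fold change above 1. The spread in the 8-group fit is shared with the other groups, and the count of 38 rests on that. At +PBS-2w against sub-SCI the count of either direction was 4 without +PBS-2w replicate 1, 10 without +PBS-2w replicate 2, 11 without sub-SCI replicate 3 and 6 without all replicate 1 libraries. An edgeR fit on these groups alone called none of them, with a smallest adjusted p of 0.0255. In that fit 10 genes were higher and 1 lower at an adjusted p under 0.05 and a log2 fold change over 1 in size. For the counts at this looser limit, at +PBS-4w and +PBS-2w, the share of all genes is not given here. They cannot be read as an excess.

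By role, the rise from sub-SCI to +PBS-4w took in 7 of 10 heavy chains (family median 1.58), 2 of the 3 Dnai and Dnali genes (1.66), all 3 Drc genes (1.63), 5 of 6 spoke genes (1.37), 4 of 5 tektins (1.82) and 17 of 25 Cfap genes (1.15). Dnah12 measured 81.9, 175, 178 and 223 CPM in +PBS-4w, above all sub-SCI libraries, with 2.37 ± 0.336 on the log2 scale (SE, adjusted p = 4.03e-05). Dnah9 returned to 15.9, 30.6, 24.3 and 30.9 CPM (1.8 ± 0.221, SE, adjusted p = 9.59e-06). Dnai1 returned to 4.55, 5.29, 3.98 and 5.14 CPM (1.66, adjusted p = 2.56e-05), within 0.01 of Intact on the log2 scale.

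Drc1 reached 22.1, 22.7, 15.8 and 24 CPM (1.63 ± 0.253 against sub-SCI, SE, adjusted p = 9.69e-05). Cfap57 reached 3.99, 5.08, 3.8 and 4.5 CPM (2.71 ± 0.304, SE, adjusted p = 3.86e-06), all above the Intact range. Larger rises were seen only for Dnah6 (2.95), and Rsph14 (2.54), Cfap206 (2.39) and Dnah12 followed. The 14 genes without a call in this comparison included all 5 genes known outside motile cilia, with Cfap410 at 0.11 and Cfap20 at 0.02 on the log2 scale. Dnah5, at 1.19 (adjusted p = 0.0879), had a wide spread in +PBS-4w, with 0.969 CPM in replicate 1 and 12.3, 8.9 and 12.4 CPM in the others. Rsph3 (0.81, adjusted p = 0.00286) was short of the fold threshold.

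The PBS groups were also set against Intact cord. In +PBS-4w 12 genes were higher DEGs and 1 was lower (13.3% and 10.7% of all genes), with a median of 0.56 for the 52 genes and fold changes above 0 in 42. Left without the 5 genes known outside motile cilia, the other 47 held the same counts with a median of 0.69. In 13 genes every +PBS-4w library exceeded every Intact one and in 2 it lay below, against 22.4% and 21.3% of all genes, so the share above Intact was close to the background. Tekt2 measured 2.18, 2.98, 2.59 and 2.58 CPM in Intact, 1.86, 1.45 and 2.88 CPM in sub-SCI and 6.07, 13, 9.35 and 10.3 CPM in +PBS-4w. These last libraries lay above all Intact and sub-SCI libraries, and Tekt2 had the largest log2 fold change of the 52 genes against Intact, 1.9 ± 0.387 (SE, adjusted p = 0.000325). Cfap45, a protein of the doublet lumen, came next with 7.01, 12.9, 7.25 and 7.52 CPM against 2.24 to 3.34 CPM in Intact (1.59, adjusted p = 7.38e-05). Tekt3 (1.53), Dnah11 (1.47), Dnai2 (1.44), Cfap100 (1.34), Cfap44 (1.33), Cfap161 (1.12), Rsph1 (1.12), Cfap77 (1.05), Dnah1 (1.04) and Dnali1 (1.01) were the others. Dnah1 lost its call in most fits that left out a library of either group (0.76 without +PBS-4w replicate 2), and Dnali1 fell below the fold threshold with median-of-ratios scaling (0.99).

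That count of 13 became 10 without all replicate 1 libraries, 16 without +PBS-4w replicate 1, 8 without +PBS-4w replicate 2 or Intact replicate 4, and 7 without Intact replicate 3. An edgeR fit on the compared groups alone called 6. In +PBS-2w, 3 genes were higher and 1 lower (8.84% and 5.66% of all genes), with a median of 0.51. The higher ones were Dnai2 (1.4), Dnah11 (1.36) and Dnali1 (1.07). The count there was 8 without +PBS-4w replicate 1, 2 without Intact replicate 4, 0 without +PBS-2w replicate 1 and 0 without all replicate 1 libraries, and DESeq2 on all libraries called 7. In +PBS-1w, 3 were higher and 4 lower (13.5% and 12.5% of all genes), with a median of −0.08. Dnah17 (1.85), Dnai2 (1.44) and Dnah11 (1.39) were higher, and Tekt5 (−2.05), Rsph6a (−2.04), Cfap126 (−1.13) and Cfap410 (−1.06) were lower. For Dnah11 in +PBS-1w the call rested on replicate 3, with 0.88 when it was left out.

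**Figure D3:**
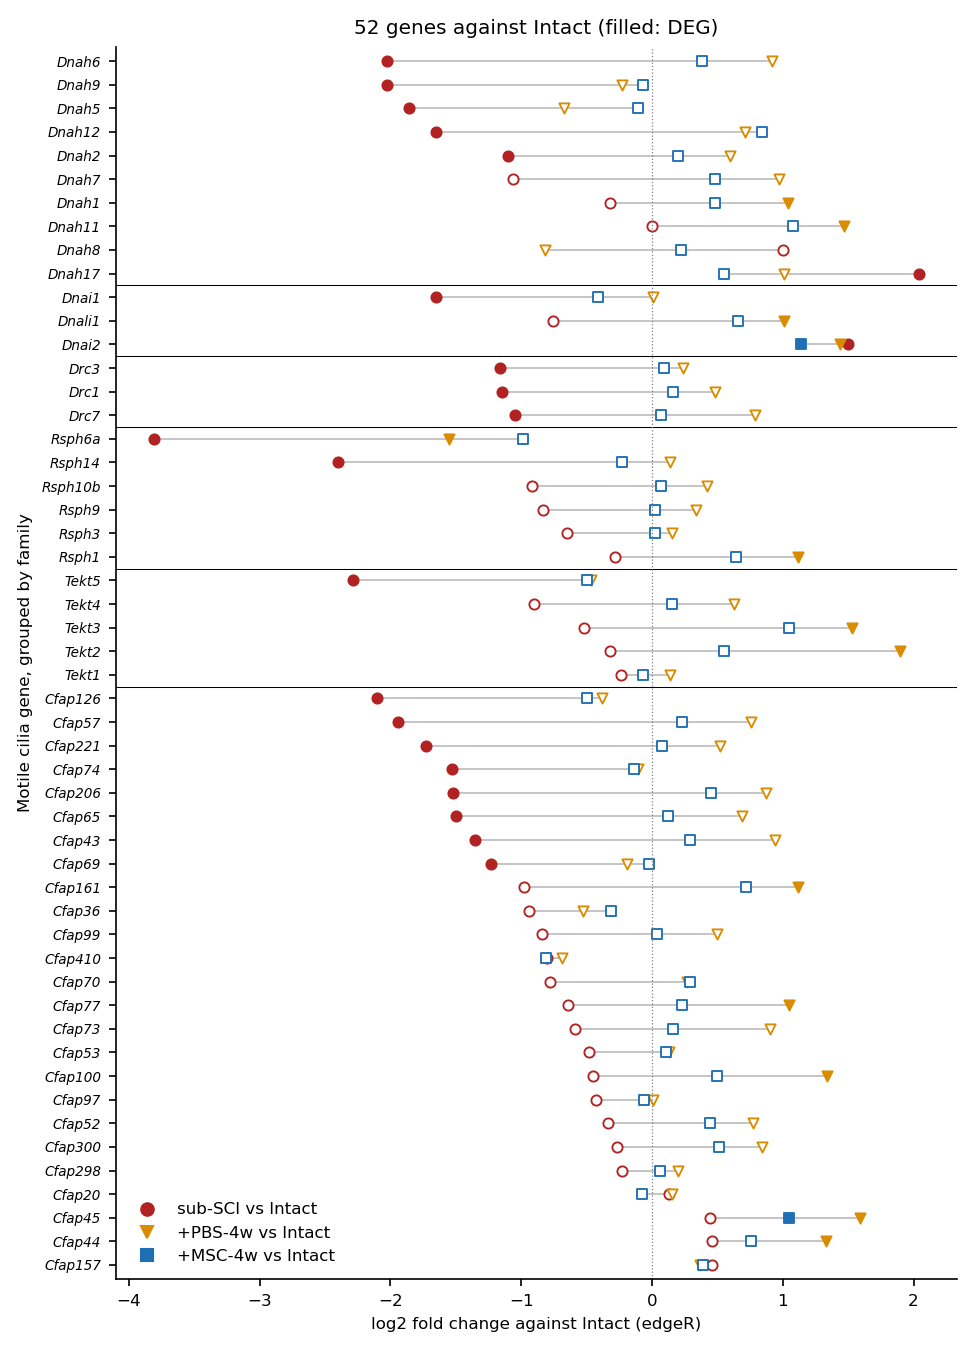
log2 fold change against Intact (horizontal axis) of each of the 52 genes (vertical axis, by family) in sub-SCI (circles), +PBS-4w (triangles) and +MSC-4w (squares), with filled markers for DEGs. The sub-SCI circles lie below 0 for 44 genes, and the +PBS-4w and +MSC-4w markers lie above 0 for 42 and 38 genes.

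Some members followed another course. Dnah17 was the higher DEG among the heavy chains in sub-SCI, with 1.31, 1.42, 2.41 and 2.7 CPM in Intact and 7.32, 7.58 and 9.36 CPM in sub-SCI (2.04 ± 0.375, SE, adjusted p = 7.56e-05). The sub-SCI libraries all lay above Intact. At week 2 Dnah17 measured 2.4 and 1.94 CPM with PBS and 1.71, 2.38 and 1.95 CPM with hUC-MSC, within the Intact range. At week 4 it measured 2.2, 5.36, 3.94 and 4.36 CPM with PBS, where 3 of 4 libraries lay above the Intact range, and 2.23, 3.85, 3.15 and 2.28 CPM with hUC-MSC. In +PBS-4w it was no DEG against Intact (1.01, adjusted p = 0.0213) or against sub-SCI (−1.03, adjusted p = 0.043). It was also no DEG in +PBS-1w against sub-SCI (−0.18, adjusted p = 0.842), with 4.07, 12.5 and 4.84 CPM. Dnah17 was the 1 lower DEG in each of +PBS-2w (−1.9), +MSC-1w (−1.55), +MSC-2w (−2) and +MSC-4w (−1.48) against sub-SCI. Dnai2 did not come back: it stood at 2.05, 2.68, 2.51 and 2.71 CPM in +PBS-4w and at 1.55, 2.05, 2.11 and 2.37 CPM in +MSC-4w, all above the Intact range of 0.684 to 1.33 CPM. In the RefSeq annotation Dnah17 overlaps Pgs1, and Dnai2 overlaps LOC120095402. Whether reads were counted by strand is not given in the sources used here, so reads of these overlaps cannot be assigned. In all, 24 of the 52 genes overlap another RefSeq gene and 16 overlap a named gene, among them Rsph14 with Gnaz, Drc3 with Tom1l2, Dnali1 with Gnl2, Rsph1 with Slc37a1 and Dnah11 with Cdca7l.

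Rsph6a, close to absent in sub-SCI, stayed under its Intact level with PBS: it measured 1.13, 0.448 and 0.921 CPM at week 1, 0.864 and 1.06 CPM at week 2 and 1.01, 1.23, 1.66 and 0.826 CPM at week 4. All of these were under the lowest Intact library (3.07 CPM) and above every sub-SCI library, and the log2 fold change of +PBS-4w was −1.55 ± 0.322 against Intact (SE, adjusted p = 0.000401) and 2.26 ± 0.405 against sub-SCI (SE, adjusted p = 0.000394). Cfap410 measured 64.2 to 72.6 CPM in Intact and stayed between 30.5 and 59.5 CPM in the PBS groups, with −0.69 at +PBS-4w (adjusted p = 0.00052). Cfap36 measured 181, 144, 145 and 147 CPM in Intact, 92.7, 84.4 and 63.3 CPM in sub-SCI and 171, 84.4, 83.2 and 88.8 CPM in +PBS-4w, where replicate 1 was far above the others.

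**Figure D4:**
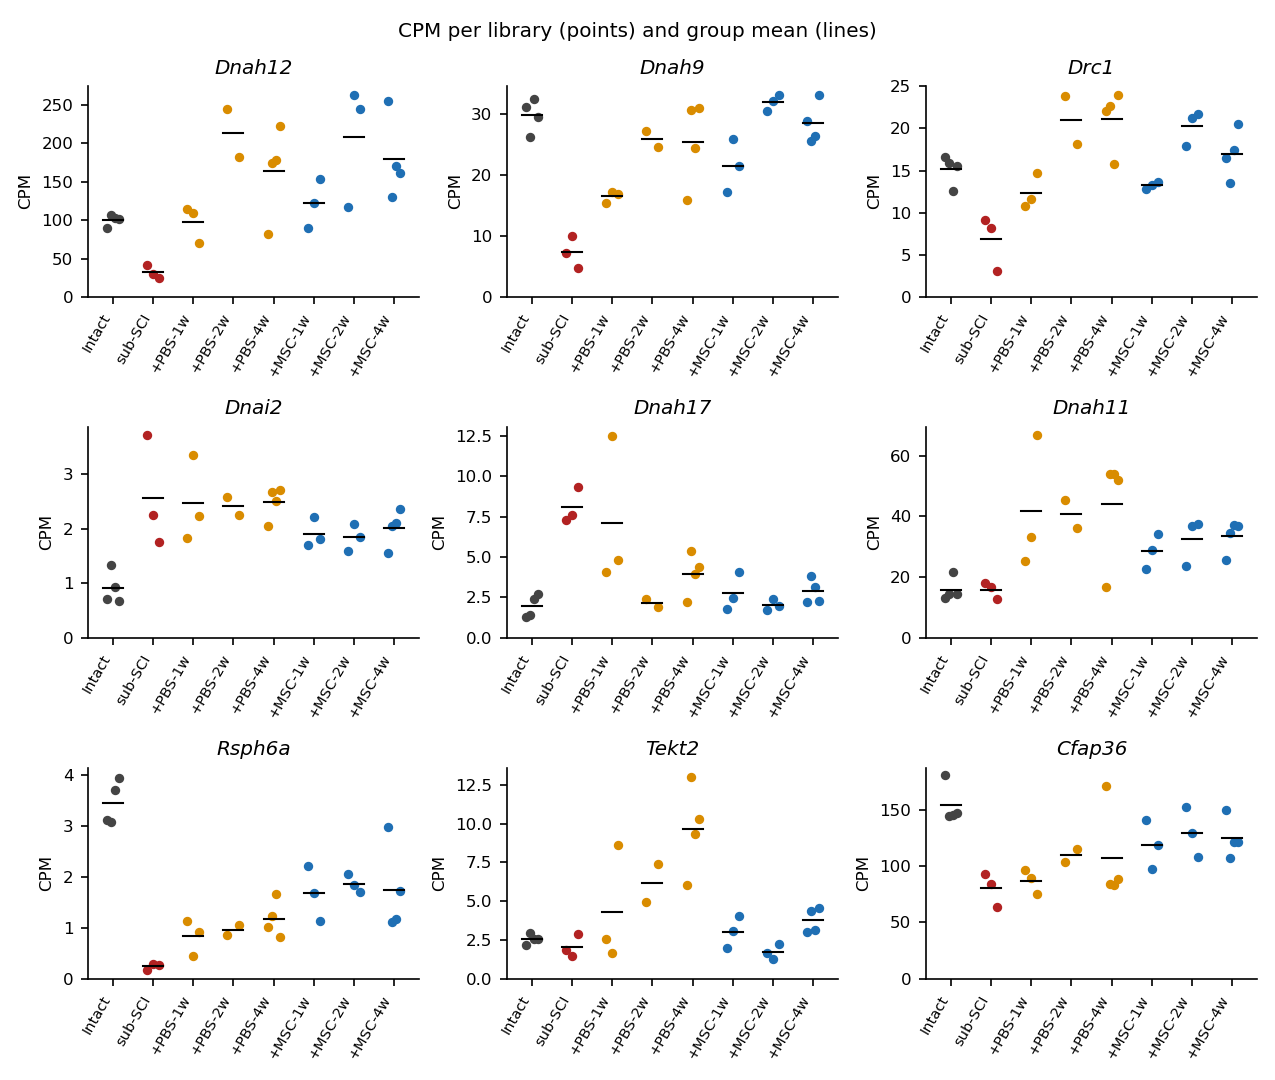
CPM of each library (points) and group mean (lines) for 9 genes across the 8 groups, each panel with its own vertical axis from 0. Dnah12, Dnah9 and Drc1 dip in sub-SCI, Dnah17 and Dnai2 rise there, Rsph6a drops to 0.174 to 0.29 CPM, and Tekt2 stands at 6.07 to 13 CPM in +PBS-4w.

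The third question was whether hUC-MSC changed the level of these genes. Against sub-SCI, 11 genes were higher in +MSC-1w, 23 in +MSC-2w and 25 in +MSC-4w (6.46%, 11% and 10.2% of all genes), and 1 was lower in each (3.52%, 7.66% and 6.1%). Without all replicate 1 libraries the counts of either direction were 12, 23 and 20. Without sub-SCI replicate 3 they were 4, 14 and 13, and edgeR fits on the compared groups alone called 4, 15 and 17. The cilia level stood at −0.06 ± 0.07 in +MSC-1w (SD, n = 3), 0.14 ± 0.15 in +MSC-2w (n = 3) and 0.19 ± 0.16 in +MSC-4w (n = 4). Single libraries measured −0.14, −0.02 and −0.01, then −0.02, 0.29 and 0.13, then 0.14, −0.02, 0.31 and 0.32. Each lay above all sub-SCI libraries, and those of week 1 lay between the lowest and the highest +PBS-1w library.

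Against Intact, few genes were DEGs after hUC-MSC. In +MSC-1w 1 was higher and 0 lower (7.87% and 2.63% of all genes), namely Dnai2 (1.07), with a median of −0.05. In +MSC-2w none was a DEG by edgeR (5.6% higher and 0.461% lower of all genes). There 7 were higher and 2 lower at an unadjusted p under 0.05, and DESeq2 on all libraries called 2, without the share of all genes for either. Cfap45 (1.05) and Dnai2 (1.14) were higher in +MSC-4w and none was lower (7.25% and 1.53% of all genes), with a median of 0.16. These small counts moved with single libraries. The count for +MSC-1w was 0 without any 1 of its own libraries or without Intact replicate 1, 3 or 4. For +MSC-2w it was 3 without +PBS-4w replicate 1 and 1 without +MSC-2w replicate 1, Intact replicate 2 or sub-SCI replicate 1. For +MSC-4w it was 4 without +MSC-4w replicate 1, 1 without its replicate 2, 3 or 4 or Intact replicate 2 or 3, and 0 without Intact replicate 1 or 4. Without all replicate 1 libraries the counts were 0, 2 and 3, in edgeR fits on the compared groups alone 0, 2 and 3, and with DESeq2 on all libraries 2, 2 and 4.

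Directly compared at the same week, none of the 52 genes was a DEG between +MSC and +PBS by edgeR, and the background was low too. At week 1, 0.0111% of all genes were DEGs in either direction, at week 2 0% and at week 4 0.495%. These low shares are those of the 8-group edgeR fit. With DESeq2 at the same thresholds, the study reported more genes changed between +MSC and +PBS at each of these weeks. At an unadjusted p under 0.05, 3 genes were higher and 2 lower with hUC-MSC at week 1 (10.6% and 7.34% of all genes), 1 and 5 at week 2 (5.49% and 6.84%) and 0 and 8 at week 4 (11.2% and 11.3%). DESeq2 on the compared groups alone called 1 gene at each week, and DESeq2 on all libraries called 1 at week 4, as did edgeR without +PBS-1w replicate 3. The share of all genes called in these alternative fits is not given here, so these counts cannot be read as an excess. The smallest adjusted p was 0.111, 0.181 and 0.0455. The median log2 fold change of +MSC over +PBS was 0.07, −0.18 and −0.35, and the fold change lay above 0 for 31, 16 and 9 of the 52 genes. Family medians at week 4 were −0.33 for Cfap, −0.4 for Dnah, −0.35 for Dnai and Dnali, −0.32 for Drc, −0.34 for Rsph and −0.47 for Tekt.

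Libraries of the groups were also compared without a model. At week 1, 8 genes had every +MSC library above every +PBS library and 3 below (15.3% and 11.6% of all genes), at week 2 7 and 14 (18.6% and 18.4%), and at week 4 0 and 7 (6.08% and 4.47%). The 7 genes at week 4 were Cfap221, Cfap57, Cfap73, Cfap77, Dnai1, Tekt2 and Tekt4. The +MSC minus +PBS change did not differ between weeks at an adjusted p under 0.05 for any of the 52 genes or of all genes (0%) by the edgeR interaction test, with 2 of the 52 at an unadjusted p under 0.05.

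Averaged over the 3 weeks, 0 genes were higher and 1 was lower with hUC-MSC (1.61% and 0.956% of all genes), and at an unadjusted p under 0.05 3 were higher and 13 lower (18% and 18.2%). The median was −0.13. The 1 DEG was Tekt2, which measured 2.01, 3.1 and 4.02 CPM in +MSC-1w, 1.67, 1.31 and 2.26 CPM in +MSC-2w and 3.02, 4.37, 3.18 and 4.56 CPM in +MSC-4w. With PBS it measured 2.56, 1.64 and 8.65 CPM at week 1 and 4.96 and 7.37 CPM at week 2. The groups overlapped at week 1 and were apart at weeks 2 and 4, and the averaged log2 fold change was −1.22 ± 0.251 (SE, adjusted p = 0.00239). By week it was −0.49 (adjusted p = 0.604), −1.82 (adjusted p = 0.181) and −1.35 (adjusted p = 0.0455). Tekt2 was no DEG without +PBS-1w replicate 3 (−0.88), without +PBS-2w replicate 1 (−1.33) or without all replicate 1 libraries (−1.34).

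The genes next to it in the averaged comparison stayed within the fold threshold. Rsph6a was higher with hUC-MSC (0.84 ± 0.217, SE, adjusted p = 0.00939), with 2.22, 1.68 and 1.14 CPM in +MSC-1w, 2.05, 1.85 and 1.7 CPM in +MSC-2w and 2.98, 1.11, 1.18 and 1.72 CPM in +MSC-4w. These libraries were above those with PBS at weeks 1 and 2 and overlapped them at week 4. Cfap100 (−0.69, adjusted p = 0.0108) and Cfap73 (−0.6, adjusted p = 0.0195), which modify inner arms, and Cfap52 (−0.43, adjusted p = 0.0323), a protein of the doublet lumen, were the others with the smallest p.

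Genes outside the 52 that ependymal cells and their cilia use were counted in the same way. Of 18 tested ependymal markers 6 were lower and 1 higher in sub-SCI against Intact (median −1.02), where 17.5% and 16.6% of all genes were. In +PBS-4w against sub-SCI 13 were higher and 0 lower (2.19), against 4.28% and 3.09% of all genes. In +PBS-4w against Intact 6 were higher and 0 lower (0.98), against 13.3% and 10.7% of all genes. Ccdc153 measured 2.36 to 6.14 CPM in Intact, 0.407 to 1.67 CPM in sub-SCI and 5.32 to 9.67 CPM in +PBS-4w, with −1.84 (adjusted p = 0.000699) for the first step and 2.8 (adjusted p = 9.55e-05) for the second. Tmem212 fell short of the threshold in sub-SCI (−1.24, adjusted p = 0.012) and rose by +PBS-4w (2.42, adjusted p = 0.000278). The marker that was higher in sub-SCI was Rarres2, a chemoattractant precursor that other cell types also make, at 30.2 to 41 CPM against 11.2 to 17 CPM (1.26, adjusted p = 0.000246).

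Genes of the axoneme and of its assembly that the symbol rule does not cover were counted against the same 17.5% lower and 16.6% higher DEGs among all genes in sub-SCI. These lists are not independent of the ependymal markers. Ak7 and Enkur are in both the ependymal and the central pair list, and Dynlrb2 is in both the ependymal and the docking list. Of 27 central pair and accessory genes 10 were lower and 1 higher (median −0.79), of 11 outer arm docking and nexin ruler genes 3 were lower (−0.75), and of 14 dynein assembly factors, which act in the cytoplasm, 2 were lower and 1 higher (0.13), with fold changes above 0 in 8. In +PBS-4w against sub-SCI 14, 5 and 5 of them were higher and 0 lower (1.39, 1.2 and 0.76), where 4.28% of all genes were higher. Hydin, a giant protein of the central pair, had 19.3 to 24.5 CPM in Intact and 1.97 to 7.5 CPM in sub-SCI (−2.18, adjusted p = 6.5e-05) and rose by +PBS-4w (2.24, adjusted p = 0.000355). Dnaaf1, which assembles dynein arms in the cytoplasm, fell (−1.09, adjusted p = 0.00229) and rose (1.61, adjusted p = 0.000359). Zmynd10, another assembly factor, measured −0.45 and 0.54 in these comparisons and was a DEG in neither. Of the nexin ruler pair, Ccdc40 rose by +PBS-4w (1.37, adjusted p = 0.00274), and Ccdc39 stayed under the fold threshold (0.72, adjusted p = 0.000342).

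The multiciliated cell programme includes transcription factors and the makers of extra centrioles. Of its 16 tested genes 3 were lower and 2 higher in sub-SCI (median 0.04), near the 17.5% and 16.6% of all genes. In +PBS-4w against sub-SCI 5 were higher and 2 lower (0.03), against 4.28% and 3.09% of all genes. Rfx2 measured 9.24 to 10.7 CPM in Intact, 7.53 to 10.1 CPM in sub-SCI and 15.4 to 23 CPM in +PBS-4w, a rise of 1.2 against sub-SCI (adjusted p = 4.95e-05). Rfx3 had log2 fold changes of −0.89 (adjusted p = 0.0913) and 0.57 (adjusted p = 0.372). Mcidas and Ccno had too few counts to be tested. Of 38 intraflagellar transport and BBSome genes, which primary cilia use as well, 4 were lower DEGs in sub-SCI (median −0.5), against 17.5% of all genes. Their fold changes lay above 0 in 9 of 38. Their summed level was 1590 to 1630 CPM in Intact, 937 to 990 CPM in sub-SCI and 1220 to 1300 CPM in +PBS-4w. Against sub-SCI, the median in +PBS-4w was 0.39.

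**Figure D5:**
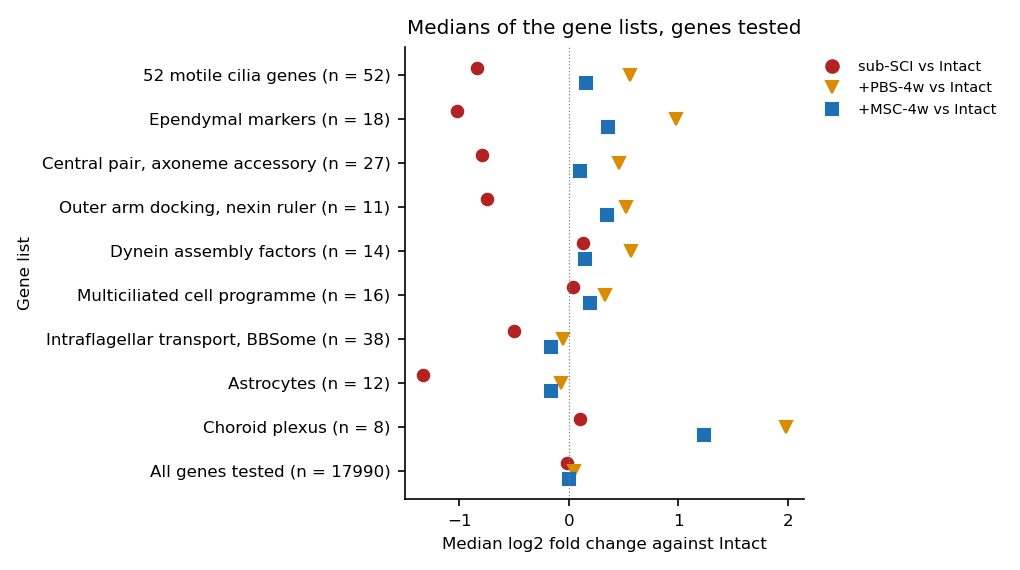
Median log2 fold change against Intact (horizontal axis) of the 52 genes, 8 other gene lists and all genes tested (vertical axis, with the number of genes tested) in sub-SCI (circles), +PBS-4w (triangles) and +MSC-4w (squares). The ependymal markers move from −1.02 to 0.98 and 0.36, and all genes stay near 0.

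Markers of other cell types moved between the same groups, and their part in the values above was not tested. In sub-SCI against Intact, 13 of 15 neuronal (median −2.54), 7 of 12 oligodendrocyte (−1.14) and 8 of 12 astrocyte (−1.33) markers were lower. Higher were 10 of 12 microglial (3.56), 14 of 14 fibroblast (3.49), 9 of 9 cell division (3.46), 4 of 8 endothelial (0.88) and 2 of 8 Schwann cell (−0.42) markers. Of 5 markers of the neurons that contact the cerebrospinal fluid at the central canal, 2 were lower and 1 higher (−0.17). Among all genes 17.5% were lower and 16.6% higher. From sub-SCI to +PBS-4w, 8 of 12 astrocyte markers were higher (1.13), 8 of 9 cell division markers were lower (−2.81), and the 15 neuronal markers had a median of 0.7. In that comparison 4.28% of all genes were higher and 3.09% lower. Astrocyte markers summed to 15400 to 17100 CPM in Intact, 6790 to 13200 CPM in sub-SCI and 19000 to 26600 CPM in +PBS-4w.

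Fibroblast and scar matrix markers summed to 346 to 1770 CPM in Intact, 9780 to 22600 CPM in sub-SCI and 1940 to 7340 CPM in +PBS-4w. Choroid plexus markers summed to 89.6 to 114 CPM in sub-SCI and 31.6 to 118 CPM in +PBS-4w. Of 8 tested markers, 2 were higher and 2 lower in sub-SCI than in Intact (0.1), against 16.6% and 17.5% of all genes. In +PBS-4w 5 were higher and 1 lower than in Intact (1.98), against 13.3% and 10.7% of all genes. Ttr, the most typical choroid plexus transcript, stood at a mean of 0.154 CPM in Intact and 0.882 CPM in +PBS-4w (2.46, adjusted p = 0.00497), and Otx2 was too low to be tested. At week 4, +MSC against +PBS had medians of −0.55 for the ependymal markers, −1.07 for the fibroblast markers, 1.05 for the neuronal markers and 0.15 for the astrocyte markers, with −0.04 for all genes.

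In several groups, the libraries numbered replicate 1 were low in the 10 dynein heavy chain genes, whose transcripts are the longest of the set at 10410 bases or more, against at most 5613 bases for the other 42. In +PBS-4w the median difference from Intact over the heavy chains was −0.26 in replicate 1 and 0.83 to 1.21 in the other 3, while over the other 42 genes it was 0.44 and 0.35 to 0.78. Replicate 1 was the lowest library of its group for 9 of 10 heavy chains in +PBS-4w, 10 in +MSC-1w, 9 in +MSC-2w, 7 in +MSC-4w and 6 in Intact, and for 4 in +PBS-1w, 2 in sub-SCI and 1 in +PBS-2w. Dnah11 shows it in +PBS-4w, with 16.8 CPM in replicate 1 and 53.9, 54 and 51.8 CPM in the others. In sub-SCI the lowest library was replicate 3, for 8 of 10 heavy chains and 28 of the other 42 genes. Neither RNA quality nor a batch is given in the labels, and the part of either was not tested.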

How the data were processed

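Total RNA with poly(A) tails was sequenced as 150 bp read pairs in 26 libraries. Per the study's methods, the authors trimmed reads with Trim Galore 0.5.0, used HISAT2 2.1.0 first against human GRCh38, to drop reads from residual human cells, and then against rat Rnor6, kept proper pairs with SAMtools 1.9 and deposited raw read counts per gene from featureCounts 1.6.4. The annotation release and the strand setting are not given in the sources used here. Removing reads that map to human can also remove rat reads of well conserved genes. The library files held the same counts as the joint table in all 26 cases. Group and replicate number were taken from the GEO labels, which give 3 libraries for +MSC-2w and 2 for +PBS-2w where the methods differ.

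From the counts, edgeR 4.0.16 (R 4.3.3) was fitted with TMM scaling and a quasi-likelihood test to 17990 genes that passed filterByExpr, with 1 coefficient for each of the 8 groups. The script was tested on simulated counts. Genes were called as DEGs at the study's limits, a log2 fold change over 1 in size with an adjusted p (Benjamini-Hochberg, all genes) under 0.01. Per-library log2 CPM used a prior count of 2. DESeq2 1.42.0, edgeR and DESeq2 on the compared groups alone, median-of-ratios scaling, no low-count filter or 10 counts in every library, a replicate block, a term for replicate 1 libraries, and fits without each library were the alternatives. Levels per kb used the gene lengths of the count table. Named genes were those of highest mean CPM in each family, those of smallest p in the sub-SCI and the averaged hUC-MSC comparisons, those called in the rarer direction, the genes known outside motile cilia and 12 genes of the other lists. Other genes of the 52 were named after their values were seen, to complete the description. The genes and lists were chosen with earlier results of these data known. Figures were drawn with matplotlib 3.10.9.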

Additional observations from a re-analysis of the deposited data

Results flagged for a closer look

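In groups of 4 libraries, 5 of 96 gene and group sets held a library far from the other 3, with a gap to the nearest that took up most of the group's range. The size of the gap relative to the range stands in parentheses. Chance flags about 1 in 20. In +PBS-4w, Tekt4 was highest in replicate 3 (0.97), at 2.49 against 1.85 to 1.87 in the others on the log2 CPM scale. Dnah11 was lowest in +PBS-4w replicate 1 (0.966), at 4.07 against 5.7 to 5.76. Cfap36 was highest in +PBS-4w replicate 1 (0.91), at 7.42 against 6.38 to 6.47, and highest in Intact replicate 1 (0.894), at 7.5 against 7.17 to 7.2. Cfap410 was lowest in Intact replicate 3 (0.865), at 6.01 against 6.16 to 6.18.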

How the results depend on the processing

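Counts of DEGs among the 52 genes are given here for both directions together, without the share of all genes under each alternative. With DESeq2 on all libraries the count was 2 for +MSC-1w, 2 for +MSC-2w, 4 for +MSC-4w and 7 for +PBS-2w against Intact, 9 for +PBS-1w against sub-SCI, and 1 for +MSC-4w against +PBS-4w. With DESeq2 on the compared groups it was 2, 2 and 8 for +MSC-1w, +MSC-2w and +PBS-2w against Intact, 4 for +PBS-1w against sub-SCI, and 1 at each week for +MSC against +PBS. With edgeR on the compared groups it was 0, 2 and 6 for +MSC-1w, +MSC-2w and +PBS-4w against Intact, and 0, 0, 4, 15 and 17 for +PBS-4w, +PBS-2w, +MSC-1w, +MSC-2w and +MSC-4w against sub-SCI. These fits hold fewer samples. Without all replicate 1 libraries it was 0, 2 and 0 for +MSC-1w, +MSC-2w and +PBS-2w against Intact, 3 and 6 for +PBS-1w and +PBS-2w against sub-SCI, and 0 for the averaged comparison. A term for replicate 1 gave 1 for +MSC-2w and 8 for +PBS-2w against Intact, and 2 for +PBS-1w against sub-SCI. With 10 counts in every library it was 4 for +PBS-1w against Intact and 1 against sub-SCI. With library totals in place of TMM, 1 gene was lower without overlap at week 1, and the cilia level of +MSC-1w was 0.05. The cause of these changes was not tested.

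Leaving out 1 library at a time, the count ran from 13 to 24 for sub-SCI, 5 to 8 for +PBS-1w, 0 to 8 for +PBS-2w, 7 to 16 for +PBS-4w, 0 to 1 for +MSC-1w, 0 to 3 for +MSC-2w and 0 to 4 for +MSC-4w against Intact. Against sub-SCI it ran from 0 to 5 for +PBS-1w, 4 to 30 for +PBS-2w, 22 to 38 for +PBS-4w, 4 to 13 for +MSC-1w, 14 to 26 for +MSC-2w and 13 to 27 for +MSC-4w. It was 0 to 1 at week 4 and in the averaged comparison. Where +PBS-2w was left with 1 library, that library was assumed to vary like the other groups.

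Replicate numbers were shared between groups, and deviations from the group means correlated above 0.1 in 18 of 28 pairs for number 1 (median 0.17), 5 of 28 for number 2, 7 of 21 for number 3 and 1 of 3 for number 4, against 32 of 214 pairs with different numbers (median −0.03). Pairs of number 1 correlated above 0.1 more often than pairs with different numbers. The main model did not treat the samples as paired and so left this shared part out. Fits with a replicate block or a term for replicate 1 are given as alternatives. With the replicate block the count was 21 for sub-SCI, 11 for +PBS-4w and 5 for +PBS-2w against Intact and 35 for +PBS-4w against sub-SCI, and no count moved by over 1.5 times.

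Of 57 gene and comparison values, 20 kept their call under all alternatives run and 37 lost it under at least 1. In 2042 alternative fits of these values, 147 lost the call and 0 changed sign. At 2 to 8 counts a library, the values of Rsph14 and Rsph6a in sub-SCI were limited by depth.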
